A study of Mus musculus with 12 samples.

Results

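The genes described here encode subunits of the last part of the respiratory chain in mouse left ventricle: complex III, cytochrome c, complex IV and the ATP synthase. They were taken by name, as every probe set annotated to a single gene symbol that begins with Uqcr, Cox4i, Cox5, Cox6, Cox7, Cox8 or Atp5, plus Cyc1 and Cycs. The probe set with the highest mean over the 12 arrays stood for each gene. The rule found 44 genes with 87 probe sets, among 18194 genes with 34945 such probe sets in all, and used no difference between groups. Of the 44 genes, 41 passed the filter on dim probe sets (a log2 signal above 4 on at least 3 of the 12 arrays), which 10435 genes of the whole table passed. These were all 9 genes of complex III, the 1 of cytochrome c, 14 of the 17 of complex IV and all 17 of the ATP synthase. Cox6b2, Cox7b2 and Cox8c did not pass.

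The study followed the left ventricle of C57BL/6 male mice under pressure load and after its release. At 7 weeks of age the aorta was narrowed with a band (AB) or the mice had a sham procedure (sAB), and both groups were killed 4 weeks later. In the other groups the first operation was followed after 4 weeks by debanding, after banding in DB3 and after the sham procedure in sDB3, and these mice were killed 3 days after the second operation. Each group had 3 mice with 1 Affymetrix array each, and the values are GCRMA log2 signals per probe set. The labels give no measure of load, heart weight or function, and they do not say how a debanding was carried out in mice that had no band. The labelled tissue was checked on 10 cardiomyocyte markers, of which 10 were tested, and Myh6, the main heavy chain of the adult mouse ventricle, lay between log2 16.35 and 16.61 on every array.

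Complex III passes electrons from ubiquinol to cytochrome c and pumps protons, cytochrome c carries the electrons on, and complex IV hands them to oxygen. The ATP synthase lets the protons flow back and makes ATP, which the heart consumes continuously. The genes described here lie in the nucleus, while mitochondrial DNA encodes a small number of further subunits of each complex. Several complex IV subunits exist as a striated muscle form and a form of other tissues. Nuclear respiratory factor 1 (NRF1), ETS family factors such as GABPA and estrogen-related receptors are known regulators of these genes.

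Promoter windows from RefSeq (GRCm38.p6) were used for 33 of the 44 genes, in 36 windows of 300 bases, from 250 before to 50 after the start. The other 11 genes were left without a window and were not searched. Among them were Atp5a1, Cox4i2, Cox6c and Uqcrq, which passed the threshold in a comparison described further on. The members' shares that follow thus describe an incomplete set. The NRF1 core GCGCANGCG, searched on both strands, lay in 30.6% of the members' windows, against 6.25% of the 32851 windows of all genes. The ETS core CCGGAAG lay in 30.6% of them against 8.86%, the estrogen-related receptor half-site AAGGTCA in 11.1% against 4.72%, the YY1 core AAGATGG in 11.1% against 6.34% and the CCAAT box ATTGG in 52.8% against 37.41%. These letters do not overlap between motifs. The 4 stretches that follow were chosen among the 33 genes with a window. They are shown because their genes passed the threshold in a comparison described further on and hold the NRF1 core. The stretches run from 120 bases before to 30 bases after the start, 5′ to 3′ on the gene's strand, with the NRF1 core, the ETS core and the CCAAT box in capitals.
Cycs, chr6:50566540-50566689, minus strand: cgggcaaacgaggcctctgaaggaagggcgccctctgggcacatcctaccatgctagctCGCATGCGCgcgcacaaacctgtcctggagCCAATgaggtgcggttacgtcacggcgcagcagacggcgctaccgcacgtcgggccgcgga
Uqcrc1, chr9:108936528-108936677, plus strand: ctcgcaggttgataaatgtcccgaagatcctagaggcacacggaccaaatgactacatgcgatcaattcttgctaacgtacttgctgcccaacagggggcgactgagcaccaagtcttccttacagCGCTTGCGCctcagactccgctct
Uqcr11, chr10:80406792-80406941, minus strand: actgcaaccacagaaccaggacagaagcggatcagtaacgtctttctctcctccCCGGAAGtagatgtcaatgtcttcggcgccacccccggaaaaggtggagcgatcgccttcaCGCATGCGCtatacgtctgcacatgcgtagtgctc
Atp5g2, chr15:102671018-102671167, minus strand: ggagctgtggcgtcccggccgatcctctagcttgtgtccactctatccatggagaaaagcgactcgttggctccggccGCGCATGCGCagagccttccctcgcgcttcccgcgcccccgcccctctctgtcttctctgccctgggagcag
In Cycs the NRF1 core begins 61 bases before the start and is followed by a CCAAT box 31 bases before it. In Uqcr11 an ETS core lies 66 bases before the start and the NRF1 core 5 bases before it. A match describes these letters only, since no binding was measured here.

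The arrays of sAB stood apart on spiked-in control transcripts. BioC read 10.15 to 10.51 there and 8.28 to 8.60 on the other 9 arrays. Cre stood apart in the other direction, at 14.38 to 14.55 in sAB and 14.71 to 14.91 on the other 9 arrays, while BioB and BioD overlapped. For every comparison with sAB these differences and the group cannot be told apart. The difference between 3′ and 5′ Actb probe sets, a measure of RNA integrity, was 1.02 to 1.13 in AB, 1.20 to 1.26 in sAB, 1.20 to 1.25 in sDB3 and 1.11 to 1.32 in DB3. Atrial markers also varied. The log2 of their summed signals was 8.86 to 10.6 in sAB, 10.73 to 13.08 in AB, 11.34 to 13.96 in sDB3 and 7.69 to 13.82 in DB3. Bmp10, which was not above the filter, was left out. The part of these measures in the results was not tested.

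The subunits as a group lay lowest in the banded ventricles and highest in the later shams, by small amounts. For each array, the median over the 41 members of the deviation from their own 12-array means was -0.0031, 0.043 and 0.012 in sAB, -0.040, -0.091 and -0.040 in AB, 0.090, 0.077 and 0.053 in sDB3, and -0.0047, -0.017 and -0.053 in DB3 (log2). The AB arrays lay below all arrays of both shams, the sDB3 arrays above all others, and DB3 overlapped with AB. Complex III, complex IV and the ATP synthase kept this order of group means, from AB through DB3 and sAB to sDB3. Cytochrome c was lowest in DB3 instead, at -0.30, -0.075 and -0.27. These are whole-tissue samples, in which fewer cardiomyocytes and less RNA per cardiomyocyte cannot be told apart. The 10 cardiomyocyte markers had a median log2 difference of -0.089 in AB against sDB3, where 2 (Ryr2 and Tnni3) were lower past the threshold (4.69% of all genes). The signals of Mybpc3 and Tnnc1 were higher on every AB array than on any sDB3 array without passing. In AB against sAB the median of the 10 markers was -0.027, with 1 higher, Mybpc3, at 0.36 (adjusted p = 0.0067), and none lower (12% and 7.69% of all genes). Their part in the members' values was not tested.

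**Figure D1:**
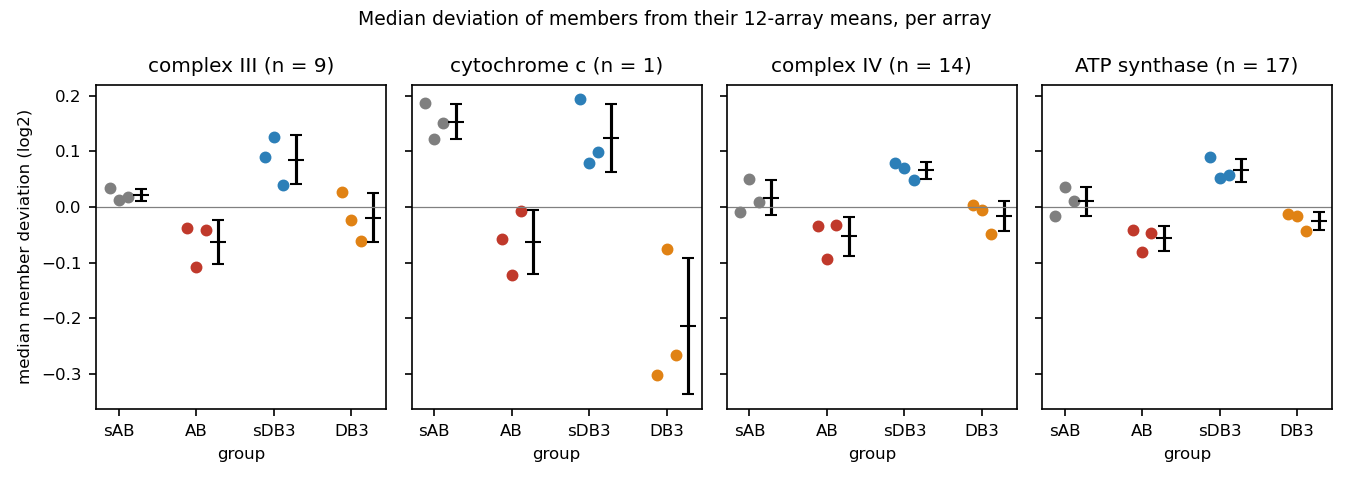
Median log2 deviation of the members of each complex from their own means over 12 arrays, 1 point per array, with the group mean and SD (n = 3) beside the points. The AB points of complex III, complex IV and the ATP synthase lie below those of sAB and sDB3, while cytochrome c (1 gene) is lowest in DB3.

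**Figure D2:**
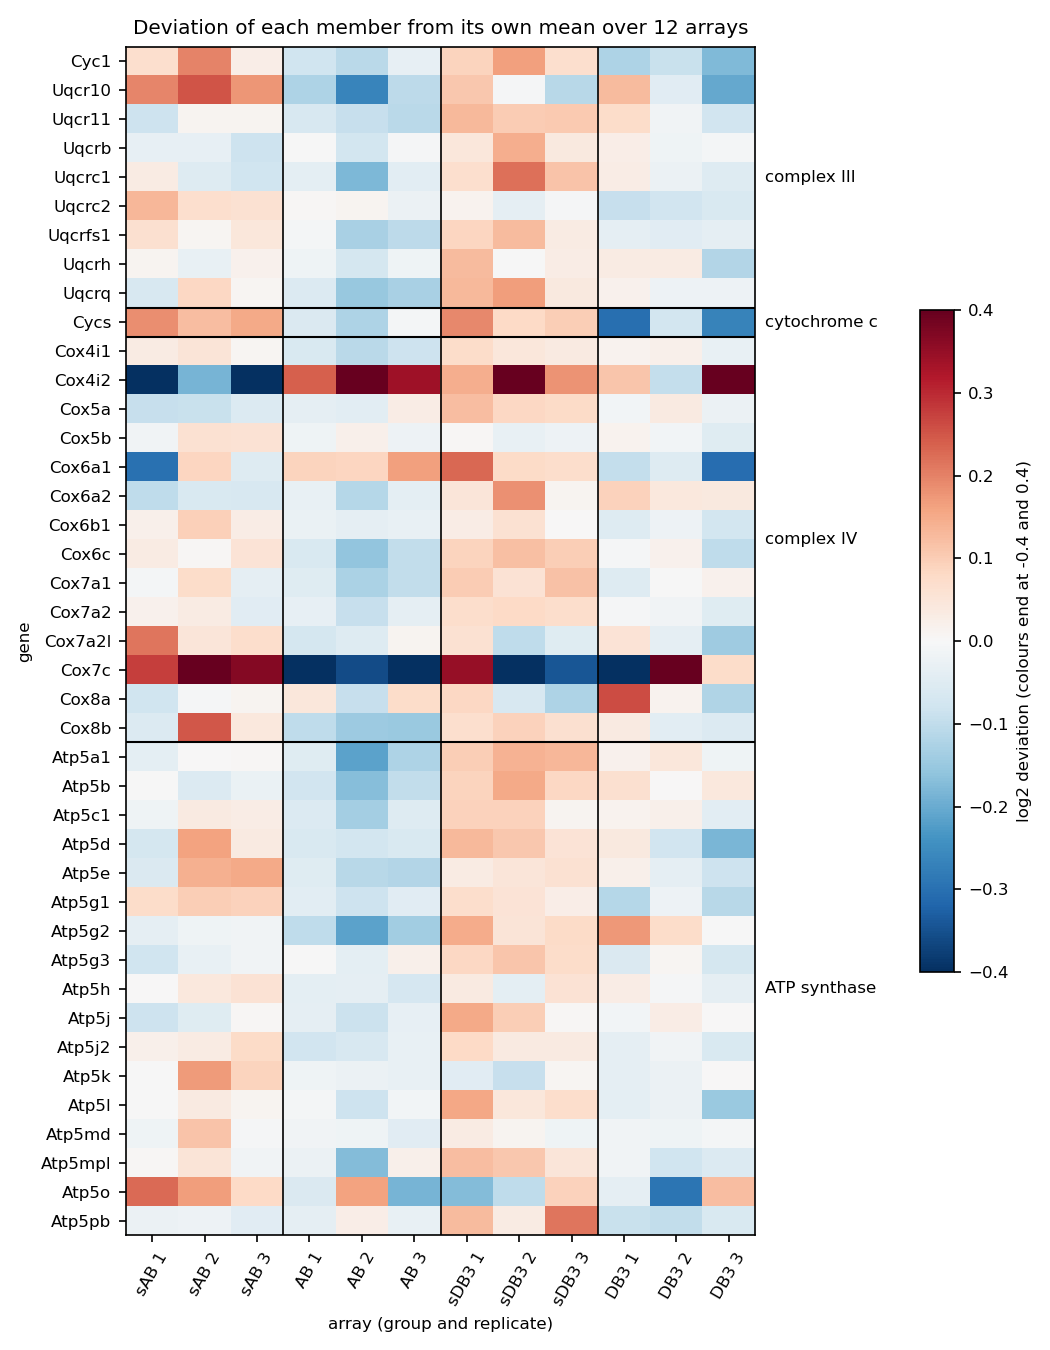
Log2 deviation of each of the 41 members from its own mean over 12 arrays, with genes in rows by complex and arrays in columns by group. Most members are blue in AB and red in sDB3, and Cox4i2 and Cox7c, both dim, go past the ends of the colour scale.

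Banding for 4 weeks was compared with the sham of the same time, AB against sAB. Of the 41 members, 3 passed an adjusted p of 0.05 with limma: Cox4i2 was higher, and Uqcr10 and Cox7c were lower. Among all genes tested 12% were higher and 7.69% lower, both larger shares than those of the members. The members' median log2 difference was -0.091 and 33 of 41 lay below 0, against a median of 0.012 over all genes. Debanded ventricles were compared with their sham, DB3 against sDB3, and 1 of 41 passed, Cycs, which was lower, where 0.997% of all genes were lower and 5.37% higher. Here 38 of 41 lay below 0, with a median of -0.086 against 0.091 over all genes. No member passed in the difference between these effects by limma (3.45% of genes higher, 2.59% lower), with 5 at an unadjusted p under 0.05. Of all 10435 genes, 2521 had such an unadjusted p there. Under an unmoderated analysis of variance 1 passed, Cox5a, and under limma with trend and robust moderation 2, Atp5pb and Cox6a1. In AB against sAB the used probe sets of Cox5a, Atp5pb and Cox6a1 gave 0.063, 0.016 and 0.20. The other tested probe sets gave -0.11 and -0.044 for Cox5a, -0.088 for Atp5pb and -0.079 for Cox6a1. The direction of this part of the difference thus depends on the probe set.

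The later sham was also set against the banded group and the earlier sham, since sDB3 shares the spike-in level of AB. In AB against sDB3, 8 of 41 members passed and all 8 were lower in AB, where 4.69% of all genes were lower and 17.3% higher. They were 3 of complex III (Uqcrc1, Uqcrq and Uqcr11), 2 of complex IV (Cox6c and Cox7a1) and 3 of the ATP synthase (Atp5a1, Atp5b and Atp5g2). The median over members was -0.14 and 35 of 41 lay below 0. In sDB3 against sAB 2 passed, Cox4i2 and Cox5a, both higher (5.49% of genes higher, 12.3% lower). In DB3 against AB 1 passed, Atp5g2, which was higher (4.04% of genes higher, 5.12% lower). These comparisons share groups, so their values are not independent of one another.

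The size of these counts depends on the scaling of the arrays. Centring each array on its median takes away a shift of 0.15 (log2) from AB against sDB3, 0.13 from DB3 against sDB3, -0.11 from sDB3 against sAB and 0.040 from AB against sAB. After it, 31 of 41 members were lower in AB against sDB3 (12.6% of all genes), 12 lower in DB3 against sDB3 (3.33%), 14 higher in sDB3 against sAB (10.1%) and 5 lower with 1 higher in AB against sAB (10.3% and 10.4%). In DB3 against AB 1 was higher (4.75%) and in the difference of effects 1, Cox6a1, was lower (4.12%). Quantile normalization over all probe sets gave 3 lower in AB against sDB3 (Uqcr11, Uqcrq and Atp5g2), where 6.96% of all genes were lower, so that this count is near the background. It gave none of 41 in DB3 against sDB3 by limma, with 8 at an unadjusted p under 0.05, where 1.91% of all genes passed in either direction. Of all 10445 genes tested with this scaling, 2151 had such an unadjusted p in that comparison. In AB against sAB 3 passed, Cox4i2 higher and Uqcr10 and Cox7c lower (10.6% and 10.1% of all genes), and in sDB3 against sAB 1 was higher, Cox4i2 (6.83%). No member past the threshold turned direction under either scaling. Of the 41 members, 35 had a mean log2 signal above 13, as had 2.78% of all tested genes. The 255 other genes above 13 had a median difference of -0.027 for AB against sAB, and the 35 members -0.091. For DB3 against sDB3 these medians were -0.015 and -0.094, and for AB against sDB3 -0.028 and -0.14.

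**Figure D3:**
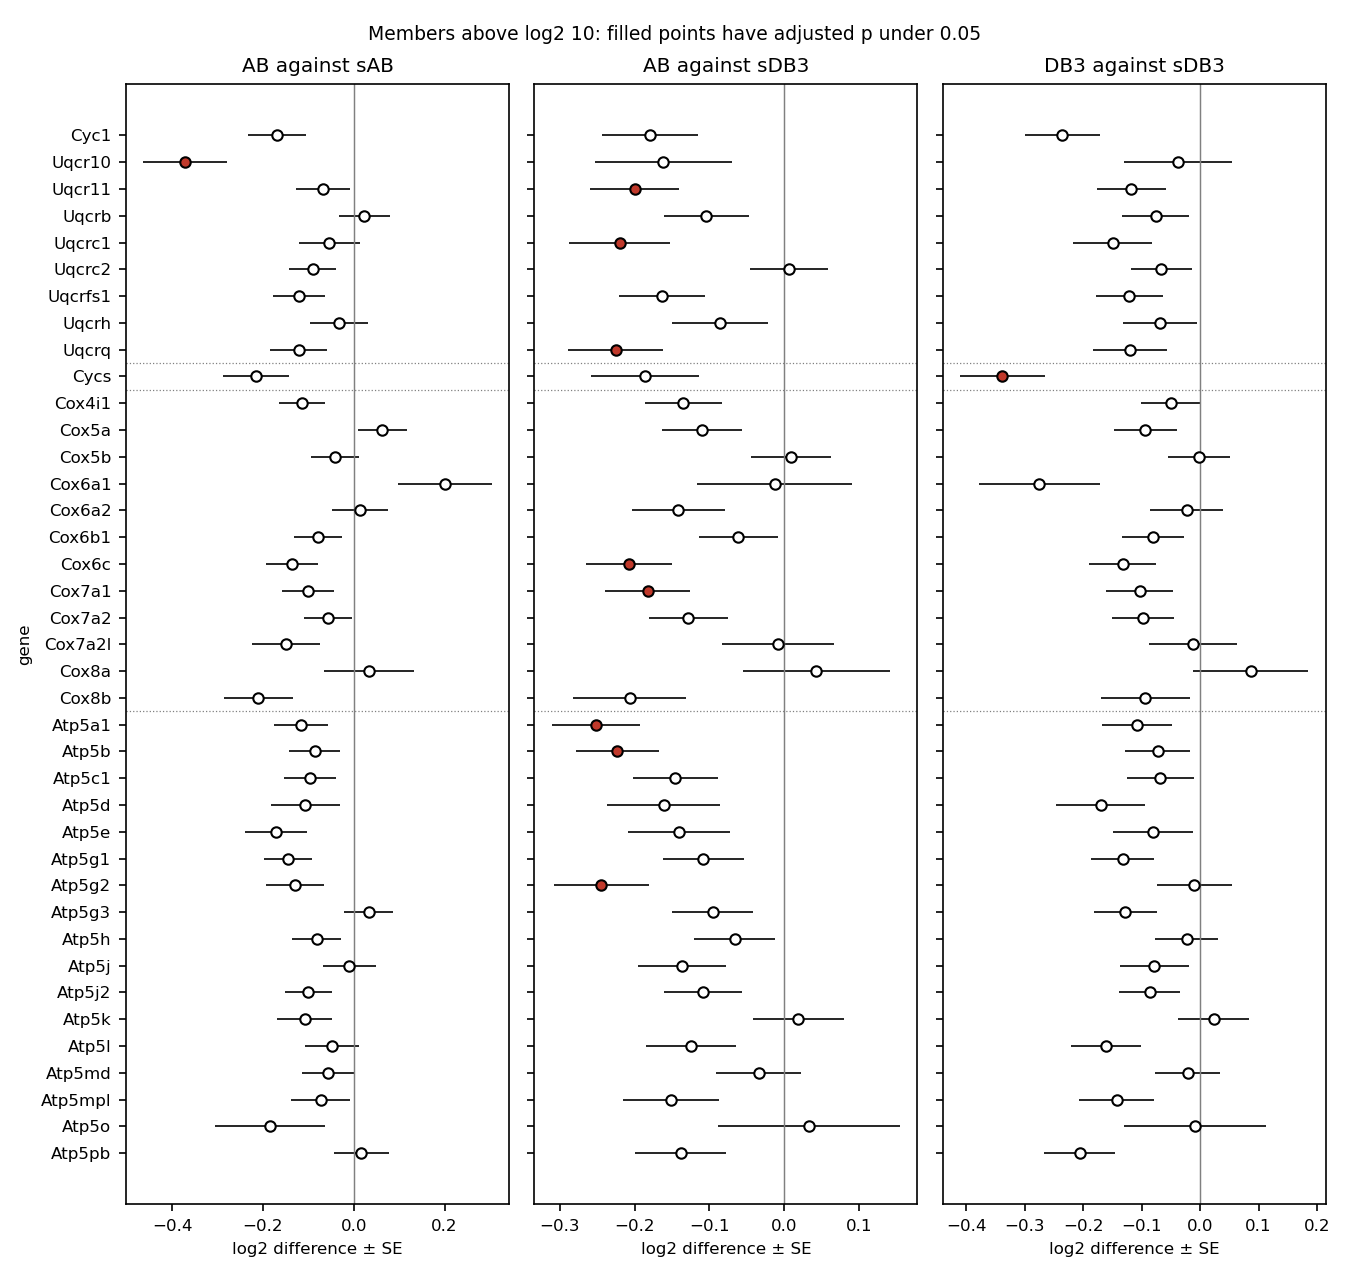
Log2 difference with its standard error for the 39 members with a mean log2 signal above 10, by gene and complex, with a panel each for AB against sAB, AB against sDB3 and DB3 against sDB3. Filled points passed an adjusted p of 0.05 (limma, n = 3 per group). Most points lie left of 0, as 33, 35 and 38 of all 41 members do in the order of the panels.

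Complex III was described first. Its 9 measured genes cover the core subunits Uqcrc1 and Uqcrc2, the redox subunits Cyc1 (cytochrome c1) and Uqcrfs1 (the Rieske iron-sulfur protein), and the small subunits Uqcrb, Uqcrq, Uqcrh, Uqcr10 and Uqcr11. Uqcr10, a small subunit next to cytochrome c1, had the largest difference of the complex under banding. Uqcr10 gave log2 signals of 13.02, 13.08 and 13.005 on the sAB arrays, 12.71, 12.56 and 12.72 on the AB arrays, 12.94, 12.82 and 12.72 on the sDB3 arrays and 12.96, 12.79 and 12.62 on the DB3 arrays. All AB values lie below all sAB values, and the sDB3 and DB3 arrays overlap with AB and lie below sAB. The difference in AB against sAB was -0.37 ± 0.092 (SE, adjusted p = 0.018 by limma), a level 1.29 times lower than in sAB. All 3 probe sets of the gene were lower, at -0.37, -0.50 and -0.36, and each passed when every probe set was tested. The pair not used as the gene's value, were also lower in sDB3 against sAB, at -0.42 and -0.36, so that they do not set AB apart from sDB3 (-0.074 and -0.0022 in AB against sDB3). The call for AB against sAB was lost without sAB replicate 2 or AB replicate 2 (highest adjusted p 0.072).

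Uqcrc1 gave log2 signals of 13.91, 13.83 and 13.80 on the sAB arrays, 13.84, 13.70 and 13.84 on the AB arrays, 13.95, 14.10 and 13.99 on the sDB3 arrays and 13.91, 13.86 and 13.83 on the DB3 arrays. Uqcrc1 is a core subunit of the matrix arm. Uqcrq gave log2 signals of 13.34, 13.49 and 13.41 on the sAB arrays, 13.35, 13.25 and 13.28 on the AB arrays, 13.54, 13.57 and 13.45 on the sDB3 arrays and 13.43, 13.39 and 13.39 on the DB3 arrays. Uqcrq is a small subunit of the membrane part. Uqcr11 gave log2 signals of 13.65, 13.75 and 13.75 on the sAB arrays, 13.67, 13.65 and 13.63 on the AB arrays, 13.87, 13.84 and 13.84 on the sDB3 arrays and 13.81, 13.72 and 13.66 on the DB3 arrays. Uqcr11 is another small subunit. In all 3 genes the AB arrays lay below the sDB3 arrays without overlap, and the sAB arrays overlapped with AB. The differences in AB against sDB3 were -0.22 ± 0.068 for Uqcrc1 (SE, adjusted p = 0.041), -0.23 ± 0.063 for Uqcrq (adjusted p = 0.029) and -0.20 ± 0.060 for Uqcr11 (adjusted p = 0.037), all by limma. They passed in 4, 8 and 5 of the 12 fits that left out 1 array. Each was lost without AB replicate 2, AB replicate 3 or sDB3 replicate 2, Uqcrq also without sDB3 replicate 1, Uqcr11 without AB replicate 1, sDB3 replicate 1 or 3 or DB3 replicate 2, and Uqcrc1 without sAB replicate 2 or 3, AB replicate 1, sDB3 replicate 3 or DB3 replicate 2.

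Cyc1 gave log2 signals of 14.15, 14.28 and 14.11 on the sAB arrays, 14.004, 13.97 and 14.05 on the AB arrays, 14.17, 14.25 and 14.15 on the sDB3 arrays and 13.96, 13.99 and 13.91 on the DB3 arrays. Cyc1 hands electrons to cytochrome c, and its DB3 values lie below all sDB3 values. The difference in DB3 against sDB3 was -0.24 ± 0.064 (adjusted p = 0.054), which missed the threshold and passed with the filter at a log2 signal above 6. Uqcrb, a ubiquinone-binding subunit, had the highest difference of the complex under banding, at 0.024 ± 0.057 (adjusted p = 0.81). Uqcrb gave log2 signals of 15.07, 15.07 and 15.02 on the sAB arrays, 15.10, 15.03 and 15.10 on the AB arrays, 15.15, 15.25 and 15.14 on the sDB3 arrays and 15.13, 15.09 and 15.10 on the DB3 arrays. Its AB and sAB arrays overlapped. Uqcr10 had the highest difference of the complex in DB3 against sDB3, at -0.038 (adjusted p = 0.83), so that all 9 genes of complex III lay below 0 there. Uqcrc2, the other core subunit, was the only one of the 9 above 0 in AB against sDB3, at 0.0071, by the probe set used. Its second bright probe set lay lower in AB, at 13.84, 13.77 and 13.85, than in sDB3, at 13.96, 13.98 and 13.94. In AB against sAB that probe set gave -0.20 (adjusted p = 0.046 by limma with every probe set tested). Uqcrfs1 gave -0.16 in AB against sDB3 (adjusted p = 0.065), with AB below all sDB3 values. Uqcrh, the hinge protein of the cytochrome c binding site, gave -0.086 there (adjusted p = 0.36).

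Cycs encodes somatic cytochrome c, the mobile carrier between complexes III and IV and a trigger of apoptosis when it leaves the mitochondrion. Cycs gave log2 signals of 15.21, 15.15 and 15.18 on the sAB arrays, 14.97, 14.91 and 15.02 on the AB arrays, 15.22, 15.11 and 15.13 on the sDB3 arrays and 14.73, 14.95 and 14.76 on the DB3 arrays. The DB3 arrays lay below every sDB3 and sAB array, the AB arrays lay below both shams too, and DB3 overlapped with AB. The difference in DB3 against sDB3 was -0.34 ± 0.073 (SE, adjusted p = 0.030 by limma), a level 1.26 times lower. The other 3 probe sets of the gene gave -0.35, -0.29 and -0.14. In AB against sAB the difference was -0.22 ± 0.072 (adjusted p = 0.060) and in AB against sDB3 -0.19 ± 0.072 (adjusted p = 0.089). The same 3 other probe sets gave -0.25, -0.11 and -0.35 in AB against sAB. Their adjusted p were 0.024, 0.34 and 0.39 by limma with every probe set tested, so that the probe sets differ on this call. The call in DB3 against sDB3 was lost without sDB3 replicate 1, sDB3 replicate 2, DB3 replicate 1 or DB3 replicate 3 (highest adjusted p 0.081) and without the sAB arrays (adjusted p 0.053). Of the assembly factors, Hccs, which attaches heme to cytochromes c and c1, was lower in the same comparison, at -0.42 ± 0.080 (adjusted p = 0.024), and in AB against sDB3, at -0.36 (adjusted p = 0.012).

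Complex IV followed, with 14 measured genes. Cox5a, a subunit on the matrix side of the catalytic core, was higher in sDB3 than in sAB. Cox5a gave log2 signals of 14.91, 14.91 and 14.95 on the sAB arrays, 14.97, 14.96 and 15.03 on the AB arrays, 15.13, 15.09 and 15.08 on the sDB3 arrays and 14.99, 15.04 and 14.98 on the DB3 arrays. All sDB3 values lie above all sAB, AB and DB3 values. The difference in sDB3 against sAB was 0.17 ± 0.053 (SE, adjusted p = 0.047 by limma), which none of the 12 fits that left out 1 array kept past the threshold (highest adjusted p 0.11). Its other probe sets gave 0.13 and 0.072, and the gene's own probe set missed the threshold when every probe set was tested (adjusted p 0.057).

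Cox6c gave log2 signals of 14.28, 14.25 and 14.30 on the sAB arrays, 14.19, 14.09 and 14.15 on the AB arrays, 14.34, 14.36 and 14.34 on the sDB3 arrays and 14.24, 14.26 and 14.15 on the DB3 arrays. Cox6c is a small membrane subunit. Cox7a1 gave log2 signals of 14.73, 14.81 and 14.70 on the sAB arrays, 14.69, 14.61 and 14.64 on the AB arrays, 14.84, 14.79 and 14.85 on the sDB3 arrays and 14.68, 14.73 and 14.75 on the DB3 arrays. Cox7a1 is the striated muscle form of subunit VIIa. In both genes all AB values lie below all sDB3 values, and below all sAB values as well. The differences in AB against sDB3 were -0.21 ± 0.057 for Cox6c (SE, adjusted p = 0.028) and -0.18 ± 0.057 for Cox7a1 (adjusted p = 0.044), by limma. Cox6c passed in 7 of 12 fits that left out 1 array, and was lost without AB replicate 2 or 3 or any sDB3 array. Cox7a1 passed in 2 of 12, those without sAB replicate 2 or DB3 replicate 1.

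Cox4i2 encodes the isoform of subunit IV that is known from lung and smooth muscle and is induced by low oxygen. Cox4i2 gave log2 signals of 3.94, 5.26 and 4.67 on the sAB arrays, 5.68, 6.07 and 5.78 on the AB arrays, 5.59, 5.87 and 5.62 on the sDB3 arrays and 5.55, 5.35 and 5.92 on the DB3 arrays. These are dim values, the lowest of them under the filter, and the sAB arrays lie below all 9 others. The difference was 1.22 ± 0.275 in AB against sAB (SE, adjusted p = 0.012 by limma), a level 2.33 times that of sAB, and 1.07 ± 0.275 in sDB3 against sAB (adjusted p = 0.025). The first passed in all 12 fits that left out 1 array, and the second was lost without sAB replicate 3, sDB3 replicate 1 or sDB3 replicate 2. In AB against sDB3 the difference was 0.15 (adjusted p = 0.73), with overlap, and the group that stands apart is the one that stands apart on BioC. Of 12 pericyte and smooth muscle markers, 4 were higher and 1 lower in AB against sAB (Cspg4, Ndufa4l2, Notch3 and Pdgfrb, and Abcc9), where 12% and 7.69% of all genes were. In sDB3 against sAB 1, Ndufa4l2, was higher (5.49% of all genes). Ndufa4l2, a hypoxia-responsive gene of pericytes, gave 0.97 ± 0.118 (adjusted p = 0.00050) and 0.49 ± 0.118 (adjusted p = 0.020) in these comparisons. The log2 of the list's summed signals, which the brightest genes dominate, was 14.93 to 14.97 in sAB and 14.87 to 15.03 in AB. The list's mean log2 signal was 9.08 to 9.4 in sAB and 9.53 to 9.62 in AB, without overlap. It was 9.22 to 9.61 in sDB3 and 9.32 to 9.84 in DB3. The part of these cells in the Cox4i2 values was not tested.

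Cox7c gave log2 signals of 4.50, 5.30 and 4.59 on the sAB arrays, 3.76, 3.86 and 3.35 on the AB arrays, 4.57, 3.70 and 3.88 on the sDB3 arrays and 3.80, 5.06 and 4.30 on the DB3 arrays. Cox7c, a small subunit, is represented by a dim probe set that was above the filter on 6 of 12 arrays, and the other probe set of that name did not pass. Its AB values lie below all sAB values, and DB3 and sDB3 overlap with both. All 3 AB values lie under the filter of 4, where the signal has no firm level, so that the size of its difference from sAB is not well measured. The fitted difference in AB against sAB was -1.14 ± 0.334 (SE, adjusted p = 0.036 by limma), lost without any 1 of the sAB or AB arrays (highest adjusted p 0.13). It was the highest of complex IV in DB3 against sDB3, at 0.33 ± 0.334 (adjusted p = 0.56). Cox6a1 was the lowest there, at -0.28 (adjusted p = 0.13). Of the remaining bright subunits, Cox5b and Cox6b1 gave -0.041 and -0.079 in AB against sAB, and 0.0093 and -0.061 in AB against sDB3. The other 3 bright probe sets of Cox5b gave -0.064, -0.12 and -0.096 in AB against sDB3 (adjusted p = 0.50, 0.23 and 0.30). Cox6b2, Cox7b2 and Cox8c, forms known from testis, stayed at or near the floor, with signals of 2.55 to 3.65, 2.23 to 2.24 and 2.23 to 2.33.

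**Figure D4:**
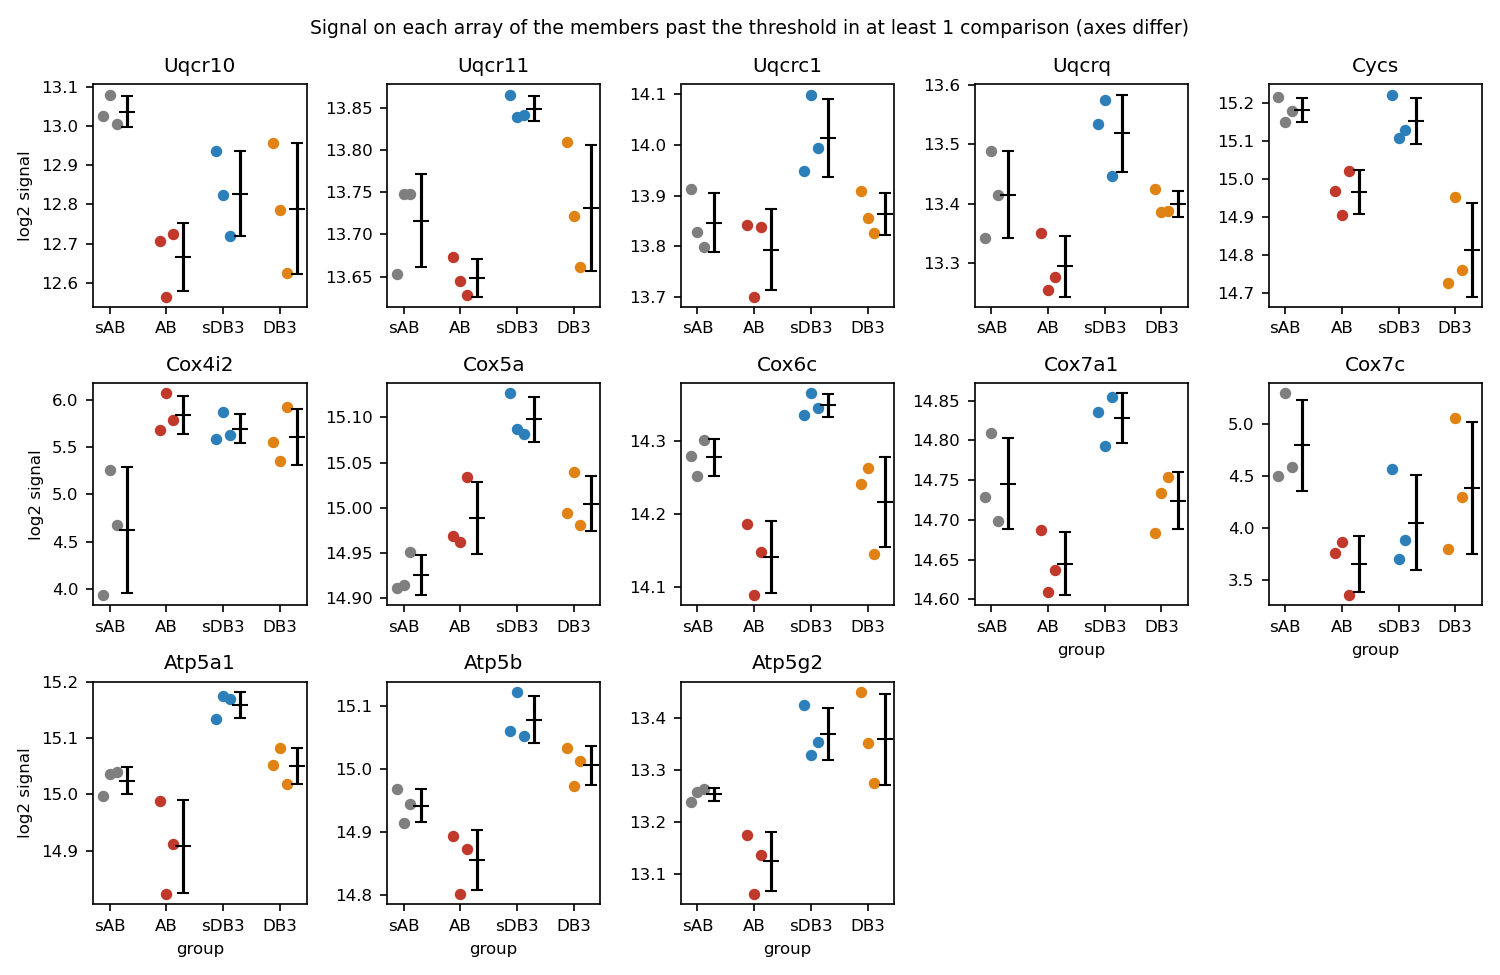
Log2 signal on each array of the 13 members that passed the threshold in at least 1 comparison, with the group mean and SD (n = 3). In 11 of the 13 panels all signals lie above 12, while those of Cox4i2 and Cox7c lie between 3 and 7, and the vertical scales differ.

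The paired isoforms of complex IV were read as a difference within each array. Cox4i1 gave log2 signals of 15.12, 15.14 and 15.09 on the sAB arrays, 15.03, 14.98 and 15.01 on the AB arrays, 15.16, 15.13 and 15.12 on the sDB3 arrays and 15.10, 15.11 and 15.06 on the DB3 arrays. Cox4i1 is the common form of subunit IV, and AB lies below the other groups without overlap. Cox6a1 gave log2 signals of 13.39, 13.77 and 13.63 on the sAB arrays, 13.77, 13.77 and 13.85 on the AB arrays, 13.91, 13.76 and 13.76 on the sDB3 arrays and 13.59, 13.63 and 13.38 on the DB3 arrays. Cox6a2 gave log2 signals of 14.30, 14.34 and 14.34 on the sAB arrays, 14.37, 14.29 and 14.36 on the AB arrays, 14.45, 14.58 and 14.41 on the sDB3 arrays and 14.49, 14.44 and 14.44 on the DB3 arrays. Cox6a2 is the heart and skeletal muscle form of subunit VIa and Cox6a1 the form of other tissues. The difference Cox6a1 minus Cox6a2 moved by -0.38 in DB3 against AB, without overlap, and the effect on Cox6a1 of debanding against its sham and that of banding (0.20) differed by -0.48 ± 0.146 (adjusted p = 0.081 by limma). A second probe set of Cox6a1 gave -0.079 in AB against sAB and -0.27 in DB3 against sDB3.

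Cox7a2 gave log2 signals of 14.59, 14.61 and 14.53 on the sAB arrays, 14.54, 14.48 and 14.54 on the AB arrays, 14.64, 14.65 and 14.64 on the sDB3 arrays and 14.57, 14.56 and 14.53 on the DB3 arrays. Cox7a2 is the form of subunit VIIa in most tissues. Cox7a2l gave log2 signals of 12.30, 12.13 and 12.15 on the sAB arrays, 12.01, 12.03 and 12.09 on the AB arrays, 12.14, 11.98 and 12.03 on the sDB3 arrays and 12.14, 12.05 and 11.94 on the DB3 arrays. Cox7a2l is a related protein that joins complexes III and IV in supercomplexes. The difference Cox7a1 minus Cox7a2 moved by -0.044 in AB against sAB and -0.0064 in DB3 against sDB3, with overlap in each. In AB against sAB Cox7a1 gave -0.10 and the used probe set of Cox7a2 -0.056. A second bright probe set of Cox7a2 gave -0.20 there (adjusted p = 0.039 by limma with every probe set tested). The direction in which this pair moved under banding thus depends on the probe set. Cox8a gave log2 signals of 10.01, 10.09 and 10.10 on the sAB arrays, 10.14, 9.999 and 10.17 on the AB arrays, 10.18, 10.03 and 9.97 on the sDB3 arrays and 10.35, 10.11 and 9.97 on the DB3 arrays. Cox8a is the common form of subunit VIII. Cox8b gave log2 signals of 14.61, 14.92 and 14.71 on the sAB arrays, 14.57, 14.52 and 14.52 on the AB arrays, 14.74, 14.76 and 14.73 on the sDB3 arrays and 14.71, 14.63 and 14.62 on the DB3 arrays. Cox8b is its heart and skeletal muscle form, and AB lies below all other groups. The difference Cox8a minus Cox8b was 0.24 higher in AB than in sAB and 0.25 higher in AB than in sDB3, without overlap in either.

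The ATP synthase was described last, with 17 measured genes of its catalytic head, its stalks and its membrane part. Atp5a1 gave log2 signals of 14.997, 15.04 and 15.04 on the sAB arrays, 14.99, 14.82 and 14.91 on the AB arrays, 15.13, 15.18 and 15.17 on the sDB3 arrays and 15.05, 15.08 and 15.02 on the DB3 arrays. Atp5b gave log2 signals of 14.97, 14.92 and 14.94 on the sAB arrays, 14.89, 14.80 and 14.87 on the AB arrays, 15.06, 15.12 and 15.05 on the sDB3 arrays and 15.03, 14.97 and 15.01 on the DB3 arrays. Atp5a1 and Atp5b encode the alpha and beta subunits that form the catalytic head. In both, all AB values lie below all sAB, sDB3 and DB3 values. In AB against sDB3 the difference was -0.25 ± 0.059 for Atp5a1 (SE, adjusted p = 0.015 by limma) and -0.22 ± 0.055 for Atp5b (adjusted p = 0.018), levels 1.19 and 1.17 times lower. Atp5a1 lost its call without AB replicate 2, and Atp5b without AB replicate 2, AB replicate 3 or sDB3 replicate 2. A second bright probe set of Atp5a1 gave -0.24 in the same comparison (adjusted p = 0.023). A less bright one, with a mean log2 signal of 7.89, gave -0.32 there (adjusted p = 0.13), and it was higher in AB against sAB, at 0.70 (adjusted p = 0.0062), and in sDB3 against sAB, at 1.02 (adjusted p = 0.0016).

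The genes Atp5g1, Atp5g2 and Atp5g3 encode the same mature subunit c, the ring that turns in the membrane, with different targeting peptides. Atp5g1 gave log2 signals of 14.72, 14.75 and 14.74 on the sAB arrays, 14.61, 14.56 and 14.60 on the AB arrays, 14.72, 14.70 and 14.68 on the sDB3 arrays and 14.53, 14.63 and 14.54 on the DB3 arrays. Atp5g2 gave log2 signals of 13.24, 13.26 and 13.26 on the sAB arrays, 13.17, 13.06 and 13.14 on the AB arrays, 13.42, 13.33 and 13.35 on the sDB3 arrays and 13.45, 13.35 and 13.28 on the DB3 arrays. Atp5g3 gave log2 signals of 14.90, 14.95 and 14.96 on the sAB arrays, 14.97, 14.94 and 14.996 on the AB arrays, 15.06, 15.09 and 15.05 on the sDB3 arrays and 14.92, 14.98 and 14.91 on the DB3 arrays. Atp5g2 was lowest in AB, with all AB arrays below all others. Its difference was -0.24 ± 0.064 in AB against sDB3 (SE, adjusted p = 0.022 by limma) and 0.23 ± 0.064 in DB3 against AB (adjusted p = 0.045). The first was lost without AB replicate 2, AB replicate 3 or sDB3 replicate 1, and the second passed in 2 of 12 fits, those without sDB3 replicate 2 or DB3 replicate 3. Atp5g3, the highest of the complex in AB against sAB, gave 0.033 ± 0.054 (adjusted p = 0.71). Atp5g1 gave -0.14 ± 0.054 (adjusted p = 0.084), with AB below all sAB values.

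Atp5o gave log2 signals of 14.38, 14.32 and 14.23 on the sAB arrays, 14.10, 14.32 and 13.97 on the AB arrays, 13.98, 14.05 and 14.24 on the sDB3 arrays and 14.12, 13.86 and 14.28 on the DB3 arrays. Atp5o encodes the stalk subunit that oligomycin sensitivity is named for, and its groups overlapped. It was the lowest of the complex in AB against sAB, at -0.18 ± 0.122 (adjusted p = 0.32). A second bright probe set of Atp5o gave -0.15 there (adjusted p = 0.063), and its AB signals lay below those of all other arrays. Atp5pb gave log2 signals of 14.96, 14.97 and 14.94 on the sAB arrays, 14.95, 15.01 and 14.95 on the AB arrays, 15.11, 15.02 and 15.20 on the sDB3 arrays and 14.90, 14.89 and 14.93 on the DB3 arrays. Atp5pb is the main subunit of the peripheral stalk, and its DB3 values lie below all others by the probe set used. Its difference in DB3 against sDB3, the lowest of the complex, was -0.21 ± 0.060 (adjusted p = 0.068), and it passed under median centring. A second bright probe set of Atp5pb gave 14.07, 14.13 and 14.06 on the DB3 arrays. These lay below all its sDB3 values but overlapped with its sAB and AB values. Atp5k gave log2 signals of 14.10, 14.28 and 14.20 on the sAB arrays, 14.09, 14.08 and 14.08 on the AB arrays, 14.06, 14.02 and 14.12 on the sDB3 arrays and 14.07, 14.08 and 14.11 on the DB3 arrays. Atp5k, a small membrane subunit, was the highest in DB3 against sDB3, at 0.024 ± 0.061 (adjusted p = 0.84). The other 9 subunits (Atp5c1, Atp5d and Atp5e of the central stalk, and Atp5h, Atp5j, Atp5j2, Atp5l, Atp5md and Atp5mpl) did not pass in these comparisons. They lay between -0.17 and -0.0099 in AB against sAB, between -0.16 and -0.034 in AB against sDB3 and between -0.17 and -0.022 in DB3 against sDB3, each below 0 in all 3.

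**Figure D5:**
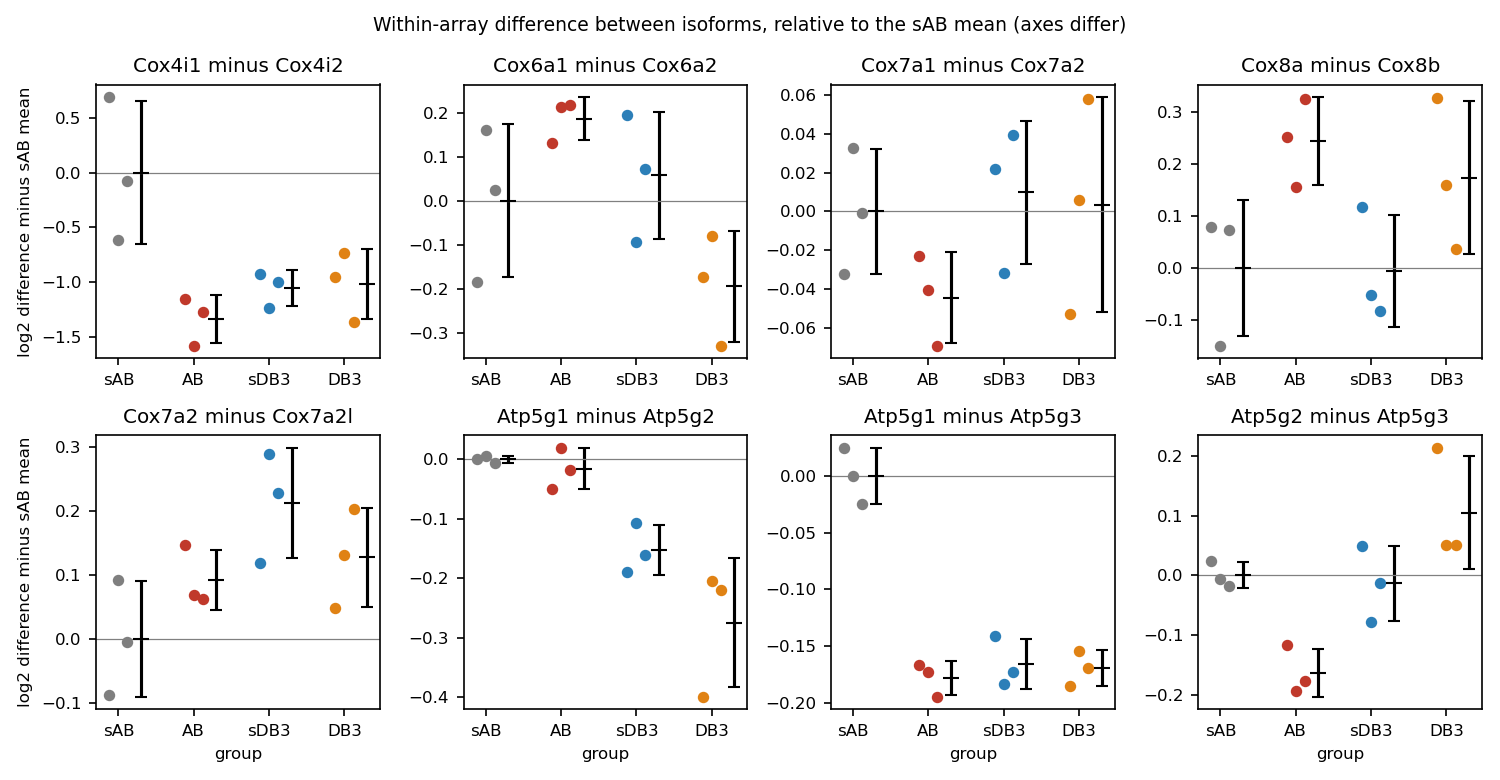
Difference in log2 signal between isoforms on each array, relative to the mean of the sAB arrays, for 8 pairs, with the group mean and SD (n = 3). Cox8a minus Cox8b lies above both shams in AB, and Atp5g1 minus Atp5g3 lies lower in AB, sDB3 and DB3 than in sAB.

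Over the 8 pairs and 5 comparisons, 40 exact two-sided permutation tests of 3 against 3 arrays were made. Their smallest possible p is 0.1, so none can pass, and the lowest adjusted p was 0.25. In 16 of the 40 the groups did not overlap. The pairs share genes and the comparisons share arrays, and no such share was computed for other pairs of genes, so this count is not read as a result. Cox4i1 minus Cox4i2 moved by -1.33 in AB against sAB and -1.05 in sDB3 against sAB. Among the subunit c genes, Atp5g1 minus Atp5g3 was -0.18 in AB and -0.17 in sDB3 relative to sAB, and Atp5g2 minus Atp5g3 was -0.16 in AB against sAB and 0.27 in DB3 against AB. A pair of probe sets is read on its own scale, so only its change between groups is given.

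The rest of the pathway was read from lists of its genes. Of 33 tested subunits of complex I, which feeds electrons from NADH into the chain, 5 were lower under banding against sAB and 4 under banding against sDB3, where 7.69% and 4.69% of all genes were lower. Of the same 33, 1 was lower in DB3 against sDB3 (0.997% of all genes), 2 were lower in sDB3 against sAB (12.3%) and 1 was higher in DB3 against AB (4.04%). The last was Ndufv1, a subunit of the NADH-oxidizing arm, which was lower in AB against sAB, at -0.26 ± 0.060 (adjusted p = 0.013 by limma), lower in AB against sDB3, at -0.25 (adjusted p = 0.015), and higher in DB3 against AB, by 0.23 (adjusted p = 0.040). The list's median difference was -0.085 for banding against its sham and also against sDB3, and -0.069 for debanding against its sham, each nearer to 0 than that of the members. Of the 4 genes of complex II, 2 were lower in AB against sAB (7.69% of all genes). Sdha, its flavoprotein, gave -0.33 ± 0.089 there (adjusted p = 0.026) and was higher in DB3 against AB, by 0.36 (adjusted p = 0.032). Sdhd, a membrane anchor, gave -0.23 in AB against sAB (adjusted p = 0.048). Sdhc, the other anchor, gave 0.24 there (adjusted p = 0.071) and was higher in sDB3 against sAB, by 0.50 (adjusted p = 0.0046). In AB against sDB3 Sdha and Sdhc were lower, at -0.29 (adjusted p = 0.041) and -0.27 (adjusted p = 0.043). Of the 6 mitochondrially encoded subunits listed, none was matched to a probe set, so that the subunits encoded by mitochondrial DNA were not analysed here.

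Of 30 tested assembly factors of complexes III, IV and V, 2 were higher and 2 lower in AB against sAB, where 12% and 7.69% of all genes were. Cox19, a factor of copper delivery to complex IV, gave 0.43 ± 0.094 there (adjusted p = 0.010 by limma), 0.80 in AB against sDB3 (adjusted p = 0.00065) and -0.72 in DB3 against AB (adjusted p = 0.0021). Tmem70, which assists assembly of the ATP synthase, was lower in AB against sAB, at -0.33 ± 0.076 (adjusted p = 0.012). Of 17 regulators, 1 was higher in AB against sAB, where 12% of all genes were. It was Ppard, a fatty acid receptor, by 1.15 ± 0.098 (adjusted p = 6.9e-05), which was also higher in sDB3 against sAB, by 0.91. In AB against sDB3 2 of the 17 were higher and 1 lower, where 17.3% and 4.69% of all genes were. Hif1a, the oxygen-regulated factor, was higher by 0.61 (adjusted p = 0.018), and Tfb1m, a methyltransferase of mitochondrial ribosomal RNA, by 0.40 (adjusted p = 0.018). Ppargc1a, a coactivator of mitochondrial biogenesis, was lower, at -1.23 ± 0.269 (adjusted p = 0.011). Ppargc1a gave 9.91, 9.60 and 9.74 in AB and 11.68, 11.01 and 10.25 in sDB3, with 10.37, 10.28 and 10.16 in sAB and 10.33, 10.15 and 10.19 in DB3. In sDB3 against sAB 3 of the 17 were higher and 1, Tfb1m, lower, where 5.49% and 12.3% of all genes were. Tfb1m gave -0.69 there (adjusted p = 0.0025 by limma) and Hif1a -0.48 (adjusted p = 0.0505). In AB against sAB Tfb1m gave -0.29 (adjusted p = 0.062) and Hif1a 0.13 (adjusted p = 0.59). In DB3 against sDB3 Nrf1 was higher, by 0.42 ± 0.095 (adjusted p = 0.033), and Tfam, the packaging and transcription factor of mitochondrial DNA, was lower, at -0.30 ± 0.059 (adjusted p = 0.026). Among all genes 5.37% were higher and 0.997% lower there.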

How the data were processed

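The authors' deposited values are log2 signals per probe set in 1 table of 12 arrays, made with GCRMA per the submitters' processing notes. The version, the settings and the grouping of arrays in that step are not stated in these sources, and no scanner file was used. Gene names came from the platform's annotation, brought up to date by gene ID in RefSeq (34741 of 34945 with 1 symbol were found). The 932 probe sets with several symbols and the 9160 with none were left out. The test was limma's moderated linear model (version 3.58.1, under R 4.3.3), in 1 model of the 4 groups with 8 residual and 2.68 prior degrees of freedom, after the series' description of an analysis of variance with sham as control. Two-sided p-values were corrected over 10435 genes with the Benjamini-Hochberg method, and 0.05 was the threshold. A fold is 2 to the power of a log2 difference, and values near the floor of GCRMA are compressed. The number of arrays limits the precision. The p-values set a difference of group means against the spread between mice within the groups, moderated over genes. They take no account of the differences of the sAB arrays on BioC and Cre. The script was tested on simulated data.

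The members, the gene lists, the rule for named genes and the added comparison of AB against sDB3 were chosen with earlier results of these data known. Genes named with every array are members past the threshold, the highest and lowest of each complex in AB against sAB and DB3 against sDB3, and isoform pairs, plus up to 3 per list and comparison. Cell type lists covered cardiomyocyte, atrial, pericyte and smooth muscle, endothelial, fibroblast, macrophage, blood, skeletal muscle and brown adipose markers. The alternatives were other dim filters, probe set rules, scalings, models and leaving out each array, with every probe set tested and a fit without the sAB arrays added after seeing the data.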

Additional observations from a re-analysis of the deposited data

How the results depend on the processing

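The numbers of members past the threshold moved with most settings, in the order AB against sAB, DB3 against sDB3, difference of effects, sDB3 against sAB, DB3 against AB and AB against sDB3. The main values were 3, 1, 0, 2, 1 and 8. No dim filter gave 7, 5, 0, 4, 3 and 15, and a filter at a log2 signal above 6 gave 2, 2, 0, 1, 1 and 8. Averaging the probe sets of each gene gave 3, 0, 0, 4, 1 and 10, quantile normalization 3, 0, 0, 1, 0 and 3, and median centring 6, 12, 1, 14, 1 and 31. An unmoderated analysis of variance gave 10, 5, 1, 6, 3 and 18, and limma with trend and robust moderation 13, 6, 2, 11, 3 and 22. A fit of only the groups compared gave 3, 0, 0, 0 and 1, without the difference of effects. Testing every probe set, chosen after seeing the data, gave 3, 1, 0, 1, 0 and 7, and leaving out the sAB arrays, also chosen then, gave 0 in DB3 against sDB3, 0 in DB3 against AB and 6 in AB against sDB3. Leaving out 1 array gave 1 to 4, 0 to 1, 0 to 1, 0 to 1, 0 to 1 and 0 to 8, with 0 in AB against sDB3 without AB replicate 2. In the same order, the shares of all features called in either direction were 19.7, 6.36, 6.04, 17.8, 9.16 and 22% in the main values, 9.01, 1.78, 1.86, 6.94, 3.51 and 8.81% without a filter, 23.6, 8.72, 8.56, 22.4, 11.9 and 25.6% with the higher filter, 18.1, 4.09, 4.29, 15.6, 7.48 and 18.4% without moderation, and 21.6, 8.06, 7.38, 19.9, 11.4 and 23.9% with trend and robust moderation. In the fit of only the groups compared no gene of 10435 passed in DB3 against sDB3 by limma, with 2137 at an unadjusted p under 0.05, so that the members' 0 says nothing of them. In its other comparisons 18.6, 5.47, 6.03 and 17.1% passed. With averaged probe sets the shares were 20.7, 5.23, 5.52, 16.8, 9.86 and 22.1%. Of all probe sets tested they were 19, 3.61, 5.48, 16.8, 7.92 and 18.7%. Without the sAB arrays 347 of 10435 genes were higher and 53 lower in DB3 against sDB3. In DB3 against AB these were 311 and 423, and in AB against sDB3 1664 and 418. Without AB replicate 2, 1004 genes were higher and 227 lower in AB against sDB3. The cause of these changes was not tested. No called difference of a member turned direction under these settings: over alternatives other than single arrays 97 values stayed on their side of the threshold and 30 did not, and over single arrays 102 and 78. Of the complex medians 26 moved by more than the spread between arrays under other settings, and of the isoform differences 24. No paired analysis was possible because the labels give no replicate numbers, so none pair the groups. The number of arrays and the brightness of most members, near the upper end of the scale, limit small differences.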

Other observations

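Of the other cell type lists, 10 endothelial markers had 3 higher in AB against sAB (Robo4, Tie1 and Eng) and 6 higher in AB against sDB3. Among all genes 12% and 17.3% were higher in these comparisons. The 10 fibroblast markers had 3 higher in AB against sAB (Postn, Col1a1 and Pdgfra) and 2 higher in DB3 against sDB3 (Dcn and Gsn), where 5.37% of all genes were higher. The log2 of the summed signals of the endothelial list was 12.89 to 12.92 in sAB, 13.08 to 13.14 in AB, 12.75 to 12.87 in sDB3 and 12.8 to 12.97 in DB3, so that AB lay above the other groups. That of the fibroblast list was 15.38 to 15.7 in sAB, 15.55 to 15.87 in AB, 15.36 to 15.43 in sDB3 and 15.57 to 15.77 in DB3. Of 10 macrophage markers 1, Cx3cr1, was higher in AB against sAB (12% of all genes), where the list's median difference was -0.31. The log2 of the list's summed signals was 12.58 to 13.64 in sAB and 12.66 to 12.81 in AB, so that the groups overlapped. Of 11 skeletal muscle markers, 8 were not above the filter, among them Actn3, Atp2a1 and Myh4, and of 5 brown adipose markers on the array Ucp1 and Elovl3 were not. The part of these cell types in the subunit values was not tested.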
